A study of Homo sapiens with 4 samples.

Results

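The cancer-testis antigen gene families were defined here by symbol: all genes whose name starts with MAGEA, MAGEB, MAGEC, GAGE, PAGE, XAGE, SSX, CTAG, SPANX, CT45 or CT47. On the Agilent whole human genome array, 65 probes paired through their RefSeq accessions with 51 such genes, out of 34127 non-control probes and 19483 named genes. No probe was paired with a GAGE gene. The CTAGE genes and SSX2IP share a prefix with these families but belong to other gene families. They are kept here as the rule has them and are described apart, and without them 54 probes of 45 genes remained.

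Cancer-testis antigens are proteins made in male germ cells, and in some cases placenta, that are silent in most other adult tissues and reappear in many tumours. Most of these families lie on the X chromosome as clusters of closely related copies. Their promoters are known to be methylated in somatic cells, and inhibitors of DNA methylation can turn several of them on. MAGE proteins bind E3 ubiquitin ligases, SSX proteins repress transcription, and CTAG1B encodes the tumour antigen NY-ESO-1.

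Gene expression was measured on 4 one-colour arrays of TR9_MeTA14 and TR15_MeTA5 cells. Both descend from LNCaP, an androgen-responsive human prostate cancer line, through the derivatives TR9 and TR15 that carry a stable Tet repressor. Into each of these a tetracycline-inducible, FLAG-tagged NFκB (AD)-MBD was introduced, a fusion of the NFκB activation domain to a methyl-CpG binding domain, as used for methyl-CpG targeted transcriptional activation (MeTA). Each line was measured without tetracycline (-Tet) and after 4 days with it (+Tet), on 1 array per condition. All 4 groups carry both constructs, and no array of cells with tetracycline but without the fusion was among them, so an effect of tetracycline itself and that of the fusion cannot be told apart. The labels do not say whether either line is a clone or a mixture.

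Signals below are processed signals, the background-subtracted intensity of a probe in arbitrary units, in the order TR9_MeTA14 -Tet and +Tet, then TR15_MeTA5 -Tet and +Tet. Fold changes were taken after the 75th percentile of each array had been set equal, which divided the +Tet to -Tet ratios by 1.26 in TR9_MeTA14 and 1.48 in TR15_MeTA5. A raw signal can therefore be higher with tetracycline while the scaled change is below 0. Where only the brighter array was well above background, the change is given as at least the stated value. The SD of a log2 ratio from repeated spots of a probe within an array was 0.0884, and the spread between cultures is unknown. No difference within a line has a replicate check, so precision is set by the small number of arrays.

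The LNCaP and luminal prostate epithelial markers, among them KLK3, KLK2, FOLH1, HOXB13, TMPRSS2, KRT8, KRT18 and EPCAM, were well above background on all 4 arrays, 10 of 10. With tetracycline, 7 of the 10 were at least 2-fold lower in TR9_MeTA14, beside 2276 of 15077 genes compared. In TR15_MeTA5 it was 0 of 10, beside 323 of 14343. The summed signal of 10 fibroblast, leukocyte and endothelial markers was 1080, 2323, 534 and 1082. COL1A2, DCN and LUM were not well above background on any array. Of the 6 with a change in each line, 2 passed 2-fold upward in both, CD14 among them (33.3%, beside 8.30% of all genes), and 0 downward. The summed signal of 10 male germ cell markers was 287, 911, 242 and 497, with DAZL, ODF1 and TNP1 not well above background on any array. Both sums are of unscaled signals, and in the latter ACR alone had 72.1, 559.8, 55.4 and 179.2. Germ cell markers well above background numbered 5, 5, 4 and 7 of 10, beside 71.0%, 77.3%, 68.2% and 71.9% of all genes. ACRV1, DDX4 and SYCP3 were added in TR15_MeTA5 +Tet at signals of 36.2, 24.5 and 43.0. The part of these shifts in the results below was not tested. In bulk RNA of LNCaP-derived cells, a change in some of the cells and a change in all of them cannot be told apart.

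Because the fusion binds methylated CpG, promoter sequences show which CG dinucleotides lie just before a member's start site. RefSeq promoters on GRCh38.p14 matched 39 of the 51 member genes, 35 of them on the X chromosome. CT47A11, whose probe had the largest increase among the members, had no entry. Shown are MAGEB2, the next highest by its smaller change over both lines, MAGEA2B and MAGEA6, the brightest members that did not reach 2-fold, and MAGEC2, added after its values were seen because both of its probes passed 2-fold in TR9_MeTA14 and neither did in TR15_MeTA5. The 250 bases before the start site are written 5′ to 3′ along the gene's strand, with CG in capitals. They lie at chrX:30215313-30215562 (plus strand) for MAGEB2, chrX:142205291-142205540 (minus strand) for MAGEC2, chrX:152714378-152714627 (plus strand) for MAGEA2B and chrX:152769690-152769939 (minus strand) for MAGEA6.
MAGEB2: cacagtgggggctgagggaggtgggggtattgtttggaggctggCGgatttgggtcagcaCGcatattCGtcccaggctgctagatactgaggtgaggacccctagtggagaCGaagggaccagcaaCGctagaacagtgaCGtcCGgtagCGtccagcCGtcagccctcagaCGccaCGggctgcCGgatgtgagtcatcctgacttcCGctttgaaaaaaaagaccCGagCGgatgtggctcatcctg
MAGEC2: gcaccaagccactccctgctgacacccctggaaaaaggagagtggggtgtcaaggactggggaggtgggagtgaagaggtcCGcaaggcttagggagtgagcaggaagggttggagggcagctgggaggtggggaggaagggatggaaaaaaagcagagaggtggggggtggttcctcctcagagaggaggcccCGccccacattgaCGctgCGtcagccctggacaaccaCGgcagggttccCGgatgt
MAGEA2B: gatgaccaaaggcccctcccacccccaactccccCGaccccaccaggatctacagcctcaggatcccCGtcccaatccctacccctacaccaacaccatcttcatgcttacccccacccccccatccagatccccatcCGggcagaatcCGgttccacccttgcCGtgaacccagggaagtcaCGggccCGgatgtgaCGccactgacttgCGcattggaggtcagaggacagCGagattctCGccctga
MAGEA6: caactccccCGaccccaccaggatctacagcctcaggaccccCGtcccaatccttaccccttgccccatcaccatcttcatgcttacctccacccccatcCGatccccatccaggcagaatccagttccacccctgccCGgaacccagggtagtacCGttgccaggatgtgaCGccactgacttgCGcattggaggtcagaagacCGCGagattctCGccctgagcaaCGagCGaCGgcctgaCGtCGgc

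These windows hold 15 CG in MAGEB2, 6 in MAGEC2, 11 in MAGEA2B and 15 in MAGEA6. MAGEA2B and MAGEA6 share an identical run of 38 bases, while the longest run shared by any other pair of the 4 is 11 bases. Over the 50 windows of the 39 member genes, some of which overlap because a gene has several starts, the number of CG ranged from 1 to 26 with a median of 7. The median over all 35116 promoter windows was 11. At least 10 CG were present in 38% of the member windows, in 32.6% of those without CTAGE and SSX2IP, and in 52.2% of all windows. Methylation of these promoters was not measured on the arrays. SSX and SPANX windows held 3 to 7 and 1 to 6 CG, MAGEA windows 5 to 18, and the 4 windows of CTAGE genes and SSX2IP 14 to 26.

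The letters CGGATGT, noticed after the promoters had been printed, occur in the MAGEB2, MAGEC2 and MAGEA2B windows, and MAGEA6 has the shorter GGATGT. On either strand, CGGATGT was present in 11 of 12 MAGEA windows (6 of 7 genes), 3 of 10 MAGEB windows, 2 of 3 MAGEC windows and 2 of 6 SSX windows. It was present in 1.17% of all promoter windows of the same length. GGATGT, which every CGGATGT contains, was present in 12 of 12 MAGEA windows and 8.43% of all windows. Members that changed with tetracycline and members that did not both hold these letters, and related copies share much of their sequence.

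Many of the families were near background in LNCaP-derived cells. Of the 65 member probes, 35, 38, 31 and 33 were well above background on the 4 arrays, or 53.8%, 58.5%, 47.7% and 50.8%. Among all probes the shares were 64.2%, 71.0%, 60.2% and 63.3%. A probe was well above background on at least 1 array for 33 of the 51 genes, and on all 4 arrays for 23. The 18 genes without such a probe were CT45A1, CT45A5, MAGEA9, MAGEA11, MAGEB4, MAGEB6, MAGEB10, MAGEB16, MAGEB18, MAGEC3, SPANXA1, SPANXA2-OT1, SPANXN1, SPANXN3, SPANXN4, SPANXN5, SSX1 and SSX4B. The 24 probes below that level on all 4 arrays, some of them additional probes of genes measured otherwise, had signals between 2.80 and 17.4.

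Detection differed by family. In MAGEA, 9, 9, 9 and 8 of 11 probes were well above background, and both CTAG probes were on every array. In MAGEB it was 2, 2, 2 and 3 of 8, in MAGEC 1, 3, 3 and 3 of 5, in PAGE 5, 4, 2 and 4 of 5 and in SSX 4, 5, 3 and 3 of 10. SPANX, sperm proteins of the nuclear envelope, and the GAGE-related XAGE genes were measurable in TR9_MeTA14 only, by 1 of 7 SPANX probes on both arrays and by 1 and 2 of 2 XAGE probes without and with tetracycline. Neither CT45 probe was well above background on any array.

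**Figure D1:**
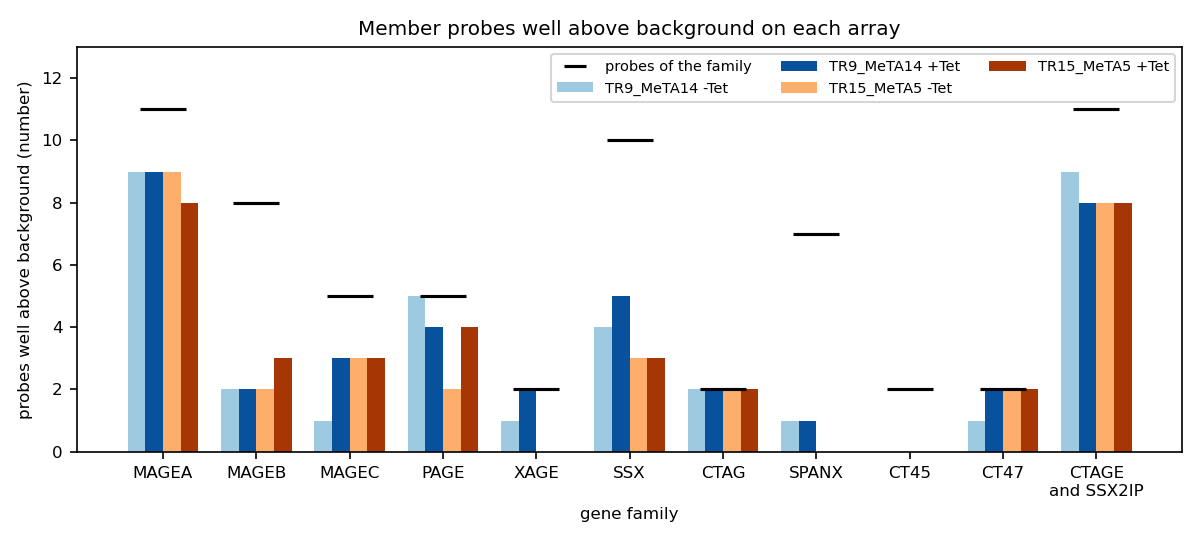
Bars give the number of member probes well above background on each of the 4 arrays, by gene family, and black lines the number of probes of that family. MAGEA probes were measurable on all arrays, with 8 or 9 of 11, while no CT45 probe and at most 1 of 7 SPANX probes were.

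Few member probes moved from background to measurable signal. In TR9_MeTA14, 5 of 30 probes below the level without tetracycline were above it with tetracycline (16.7%, beside 24.3% of all such probes), and these were the CT47A11 probe described next, both MAGEC2 probes, SSX8P and XAGE5. In TR15_MeTA5 it was 3 of 34 (8.82%, beside 14.0%), namely MAGEB3, PAGE2 and a PAGE2B probe. No member probe did so in both lines, 0 of 27, beside 7.74% of all probes below the level without tetracycline in both.

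By the study's cut-off of 2-fold, 6 member probes were higher with tetracycline in TR9_MeTA14 of 40 compared, or 15.0%, close to the 15.2% of all probes compared. Only 1 was lower, or 2.5%, beside 15.1% of all probes. This order turned at a cut-off of 1.5-fold, where 16 of 40 were lower in TR9_MeTA14, or 40%, beside 27.2% of all probes. Among the 16 were every CTAGE probe compared in that line and an SSX2IP probe, which belong to other gene families. The share without them was not counted. In TR15_MeTA5, 3 of 34 were higher, or 8.82%, close to the 8.5% of all probes, and 0 were lower, beside 2.67%. In both lines, 1 of 33 was higher, or 3.03%, beside 7.01% of all probes, and 0 were lower, beside 0.891%. Counted by gene, 1 of 27 member genes was higher in both lines (3.70%), beside 1160 of 13970 genes (8.30%).

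The probe higher in both lines, A_24_P332857, is named for CT47A11, a copy from the CT47A cluster on the X chromosome whose product has no well-described function. Its signals were 9.5, 14966, 21.7 and 7881. It was not well above background in TR9_MeTA14 -Tet, was near it in TR15_MeTA5 -Tet, and was among the bright probes on both +Tet arrays. The increase was at least 769-fold in TR9_MeTA14 and 246-fold in TR15_MeTA5, larger than that of 99.97% of the probes compared in each line. With the lines taken as replicates, limma gave a log2 change of 9.12 (SE 0.62, adjusted p = 0.0155).

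The other CT47A11 probe, A_32_P207124, did not share this change. It is paired with the same RefSeq transcript, and its signals were 1276, 1489, 1432 and 1730, well above background on all 4 arrays. The scaled log2 changes were -0.11 in TR9_MeTA14 and -0.29 in TR15_MeTA5, and limma gave -0.20 (SE 0.25, adjusted p = 0.679). The probes therefore disagree, and because the CT47A copies are nearly identical, neither probe can be tied to CT47A11 alone. When the probe with the highest mean of linear scaled signals stands for a gene, CT47A11 counts as higher in both lines. When the highest mean log2 signal decides, the flat probe stands for it and the number of member genes higher in both lines is 0. The choice between these readings was made after both probes had been seen.

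**Figure D2:**
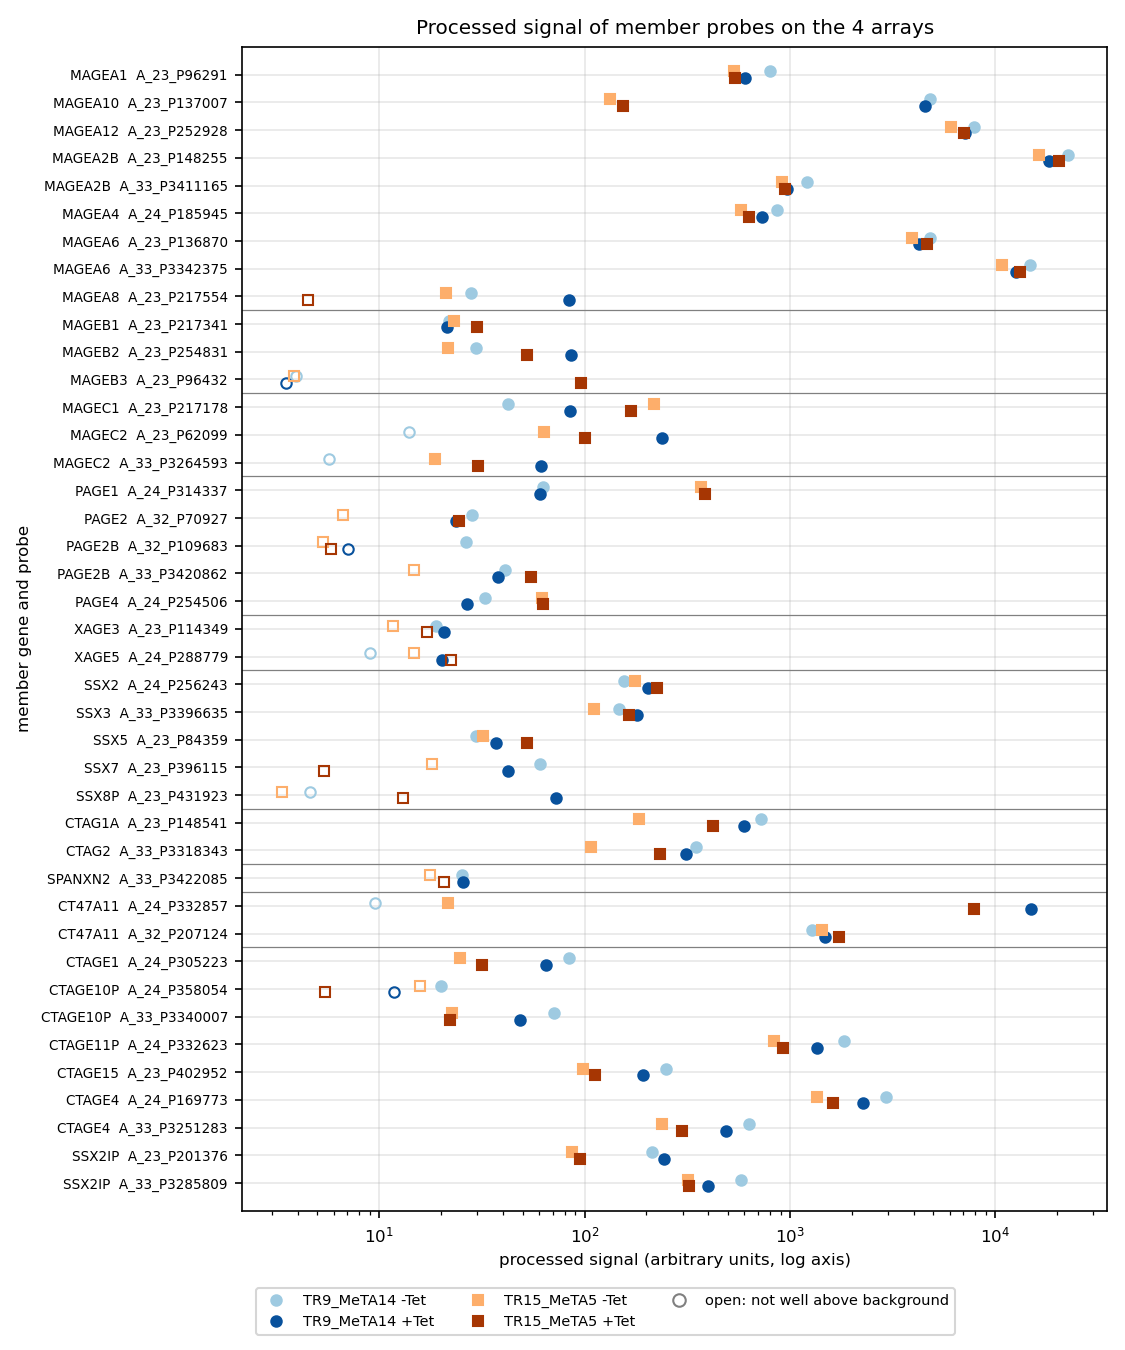
Processed signals (log axis, arbitrary units) of the 41 member probes well above background on at least 1 array, grouped by family, with circles for TR9_MeTA14, squares for TR15_MeTA5, light colours for -Tet, dark colours for +Tet and open symbols for arrays where the probe was not well above background. The CT47A11 probe A_24_P332857 spans from 9.5 to 14966, whereas the 4 symbols of most MAGEA probes lie close together.

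Among the MAGEC genes, MAGEC2, a partner of the TRIM28 ubiquitin ligase, passed 2-fold with both of its probes in TR9_MeTA14 and with neither in TR15_MeTA5. The brighter probe, A_23_P62099, had signals of 14.0, 238.7, 63.1 and 100.2. Only TR9_MeTA14 -Tet was not well above background, and the increase was at least 12.3-fold in TR9_MeTA14 and 1.07-fold in TR15_MeTA5. The dimmer, A_33_P3264593, had 5.7, 61.3, 18.7 and 30.4, or at least 3.15-fold and 1.10-fold. Over both lines the limma log2 change of the brighter probe was 1.93 (SE 0.94, adjusted p = 0.316), in which the background-level signal entered as measured, as in the limma values of CT47A11 above. Without tetracycline the scaled signal was at least 6.87-fold higher in TR15_MeTA5 than in TR9_MeTA14 by the brighter probe. With tetracycline it was 1.66-fold higher in TR9_MeTA14.

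MAGEC1, the MAGE gene with a long repeat-rich N-terminal part, moved apart in the lines. Its signals were 42.5, 85.1, 217.4 and 167.7, well above background on all arrays and higher in TR15_MeTA5 under both conditions, while its other probe was not well above background on any array. The log2 change was 0.67 in TR9_MeTA14 and -0.94 in TR15_MeTA5, which was the lowest change measured on both arrays for a member gene in that line, and limma gave -0.13 (SE 0.48, adjusted p = 0.893).

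Of the MAGEB genes, MAGEB2 was higher with tetracycline in both lines and passed 2-fold in TR9_MeTA14. Its signals were 29.5, 85.6, 21.6 and 52.6, low but well above background on all 4 arrays, with both +Tet values above both -Tet values. The increases were 2.31-fold and 1.65-fold, and the former fell short of 2-fold with quantile normalization (0.96 on the log2 scale) and with normexp (0.44). Over both lines, limma gave a log2 change of 0.96 (SE 0.35, adjusted p = 0.253). MAGEB3 was at background on 3 arrays, with signals of 3.9, 3.5 and 3.8, and at 96.5 in TR15_MeTA5 +Tet. This gave an increase of at least 4.23-fold in TR15_MeTA5 and no fold in TR9_MeTA14. MAGEB1, the remaining measurable MAGEB gene, had log2 changes of -0.36 and -0.19.

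The MAGEA genes were mostly measurable without tetracycline and mostly did not reach 2-fold. The brightest probe of MAGEA2B had signals of 22524, 18294, 16342 and 20382, or log2 changes of -0.63 and -0.25. That of MAGEA6 had 14769, 12664, 10747 and 13202, or -0.55 and -0.27. MAGEA12 had 7896, 7104, 6067 and 7002, or -0.48 and -0.36. All of these were well above background on every array and changed by at most 1.55-fold after scaling. MAGEA2B and MAGEA6 have near-identical copies, MAGEA2 and MAGEA3, from which their probes may also read.

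All 8 MAGEA probes well above background on all 4 arrays, from MAGEA1, MAGEA2B, MAGEA4, MAGEA6, MAGEA10 and MAGEA12, had changes below the median of all probes in both lines. Their medians were -0.57 in TR9_MeTA14 and -0.36 in TR15_MeTA5 on the log2 scale, beside -0.15 and -0.19 over all 19298 such probes. In TR15_MeTA5 it was 6 of 8 with quantile normalization and with normexp. Scaling on spike-in probes raised the median of all probes in TR15_MeTA5 to 0.18 and put single MAGEA changes above 0 there. It shifts every change in a line by the same amount, so the 8 of 8 below the all-probe median could not change. The 27 member probes on all 4 arrays, 8 of them MAGEA and 8 CTAGE or SSX2IP, and none XAGE, SPANX or CT45, had medians of -0.55 and -0.31, and 20 and 22 of them lay below the all-probe medians. Without CTAGE and SSX2IP, 13 and 14 of 19 did, with medians of -0.48 and -0.29. These probes come from near-identical copies and are not independent, so the counts are a description.

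MAGEA10 differed between the lines and not by 2-fold with tetracycline. Its signals were 4783, 4564, 133 and 154, so that both TR9_MeTA14 arrays were far above both TR15_MeTA5 arrays. After scaling it was 21.3-fold higher in TR9_MeTA14 without tetracycline and 20.7-fold with it, while its log2 changes with tetracycline were -0.40 and -0.36. MAGEA8 was the MAGEA gene that passed 2-fold, and did so in TR9_MeTA14. Its signals were 28.1, 84.3, 21.1 and 4.5, with TR15_MeTA5 +Tet not well above background. It was 2.39-fold higher in TR9_MeTA14 and at least 1.62-fold lower in TR15_MeTA5, and with normexp the log2 change in TR9_MeTA14 was 0.43, short of 2-fold.

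CTAG1A and CTAG2, of the NY-ESO-1 family, were lower with tetracycline in TR9_MeTA14 and higher in TR15_MeTA5, in neither case by 2-fold. CTAG1A had signals of 722.7, 599.8, 184.2 and 423.4, or log2 changes of -0.60 and 0.64. CTAG2 had 349.3, 312.3, 107.3 and 234.2, or -0.49 and 0.56. In both genes TR15_MeTA5 -Tet was the lowest of the 4 arrays. CTAG1A and CTAG1B have near-identical transcripts, so the probe may read both.

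In the PAGE family, PAGE1 and PAGE4, the latter a disordered protein of the prostate and placenta, differed between the lines more than with tetracycline. PAGE1 had signals of 62.8, 60.9, 368.2 and 383.9, and PAGE4 had 32.8, 26.7, 62.0 and 62.6. Both were higher in TR15_MeTA5 on both arrays, and their log2 changes with tetracycline lay between -0.63 and -0.37. PAGE2B was read by probes that disagree. A_33_P3420862 had 40.9, 37.9, 14.8 and 54.6 and was at least 2.40-fold higher in TR15_MeTA5, where -Tet was not well above background. A_32_P109683 had 26.5, 7.0, 5.3 and 5.8, was well above background in TR9_MeTA14 -Tet alone, and was at least 2.40-fold lower there with tetracycline. PAGE2, a close relative, had log2 changes of -0.59 and at least 0.10.

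Of the SSX genes, known from their fusion to SS18 in synovial sarcoma, SSX2, SSX3 and SSX5 were well above background on all arrays and had log2 changes between -0.20 and 0.15 in the lines. SSX2 has a near-identical copy, SSX2B, that its probe may also read, and another SSX2 probe was not well above background on any array. SSX8P, a pseudogene, had signals of 4.6, 72.6, 3.4 and 13.1 and was well above background in TR9_MeTA14 +Tet alone, where it was at least 3.73-fold higher. SSX7, whose other probe was not well above background on any array, had 60.8, 42.5, 18.1 and 5.4, well above background in TR9_MeTA14 alone. Its log2 change there was -0.85, among the lowest of the member genes, and limma gave -1.58 over both lines (SE 0.51, adjusted p = 0.236), with background-level signals in TR15_MeTA5. SPANXN2, XAGE3 and XAGE5 had log2 changes in TR9_MeTA14 of -0.32, -0.21 and at least 0.05.

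The CTAGE genes, cutaneous T cell lymphoma-associated antigens related to MIA2, and SSX2IP, a centrosomal partner of SSX2, did not pass 2-fold in either line. The brighter CTAGE4 probe had signals of 2942, 2262, 1352 and 1621. CTAGE10P, a pseudogene, had 70.7, 48.3, 22.7 and 22.2 with its brighter probe, or log2 changes of -0.88 and -0.60, the former the lowest in TR9_MeTA14 among member probes measured on both arrays. SSX2IP followed with 576.6, 399.1, 318.1 and 323.9, or -0.86 and -0.54, while its other probe was at -0.14 and -0.43. CTAGE1, CTAGE11P and CTAGE15 lay between -0.77 and -0.21. The median over the 8 probes on all arrays was -0.71 in TR9_MeTA14 and -0.40 in TR15_MeTA5.

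**Figure D3:**
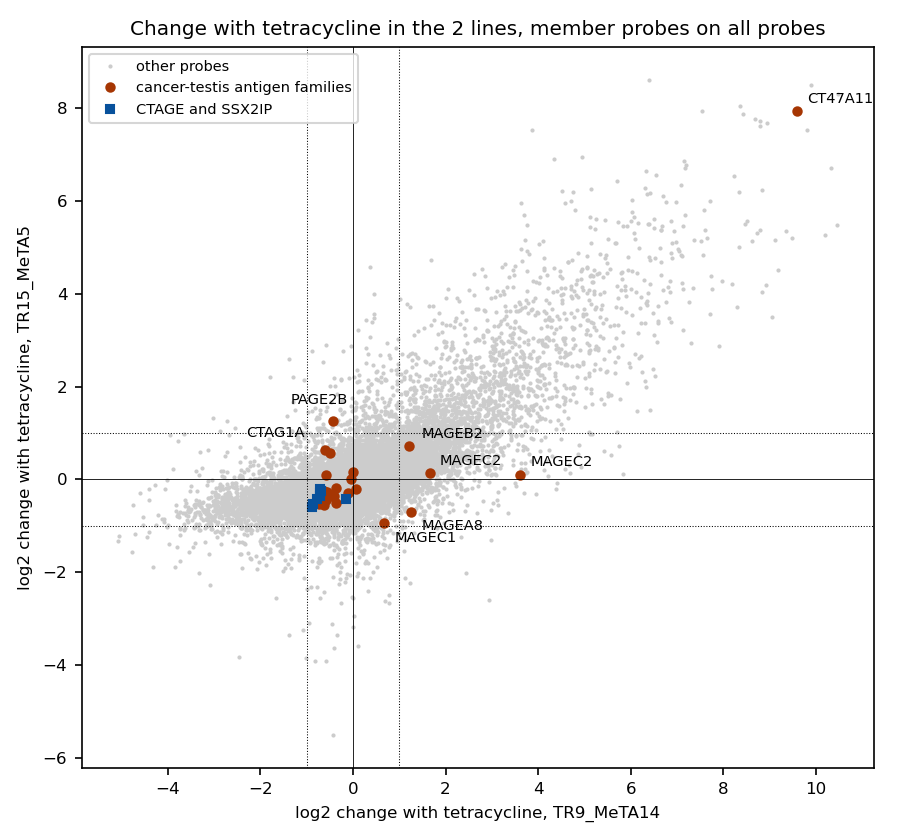
Log2 change with tetracycline in TR9_MeTA14 (horizontal) against TR15_MeTA5 (vertical) for every probe compared in both lines, with member probes in red, CTAGE and SSX2IP probes in blue, all other probes in grey and dotted lines at 2-fold, and with lower bounds drawn at their value. The member probes lie mainly around and below 0, apart from the CT47A11 probe at 9.59 and 7.94 and the MAGEC2 probes at 3.62 and 1.65 in TR9_MeTA14. Also past 2-fold upward were MAGEA8 (1.25) and MAGEB2 (1.21) in TR9_MeTA14 and a PAGE2B probe (1.26) in TR15_MeTA5.

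Taking the lines as replicates, limma tested 36 member probes and found 1 higher with tetracycline at an adjusted p below 0.05 (2.78%, beside 2.6% of all 22808 probes) and 0 lower (beside 0.0132%). At an unadjusted p below 0.05 there were 3 member probes (8.33%, beside 19.5% of all probes), with CT47A11 and MAGEB2 higher and SSX7 lower. The fit has 1 residual degree of freedom. It made no call among the members when the test was limited to probes measurable on all 4 arrays, since this leaves out the CT47A11 probe, and the smallest adjusted p was then 0.238.

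Without tetracycline the lines already differed in these families. Of 35 member probes compared, 6 were at least 2-fold higher in TR15_MeTA5 (17.1%, beside 8.44% of all probes) and 3 lower (8.57%, beside 5.49%). The higher probes were PAGE1 with 9.88-fold, MAGEC1 with 8.61-fold, both MAGEC2 probes with at least 6.87-fold and at least 2.04-fold, PAGE4 with 3.18-fold, and the rising CT47A11 probe with at least 2.36-fold. The lower ones were MAGEA10, CTAG1A with 2.33-fold and CTAGE1 with 2.01-fold. Each line was measured on a different array, so line and array cannot be told apart. The number of lower probes was 15 when scaled on spike-in probes and 1 after normexp with quantile normalization.

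Other cancer-testis genes, outside these families, were taken from a list of 118, of which 105 were on the array. Of 42 with a change in each line, 3 passed 2-fold upward in both (7.14%, beside 8.30% of all genes), among them CABYR and LY6K, and 2 were lower, NUF2 and TMEFF2 (4.76%, beside 0.845% of all genes). CABYR, a calcium-binding protein of the sperm tail, had signals of 8.5, 236.6, 12.03 and 314.2, or at least 12.2-fold and 13.8-fold higher. LY6K, a membrane-anchored testis protein, had 8.05, 360.9, 11.8 and 250.05, or log2 increases of at least 4.21 and 3.45. CABYR and LY6K were not well above background without tetracycline in either line. TPTE, SPAG4, POTED, CCDC83 and HSPB9 followed, with log2 changes between 0.84 and 3.02 in TR9_MeTA14 and between 0.56 and at least 0.80 in TR15_MeTA5.

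The type II MAGE genes share the MAGE homology domain but are expressed in many tissues. Of 13 listed, 11 were on the array, and 1 of 8 with a change in each line passed 2-fold upward in both (12.5%, beside 8.30% of all genes). This was MAGEL2, an imprinted gene of the Prader-Willi region, with signals of 14.7, 1782, 5.6 and 106.4, or at least 6.52 and 2.22 on the log2 scale. MAGED4B had 535.5, 2004, 139.2 and 304.7, or 1.57 and 0.57. MAGED1, MAGED2, MAGEE1, MAGEF1, NDN and NSMCE3 had log2 changes between -0.79 and 0.17 in TR9_MeTA14 and between -0.62 and -0.12 in TR15_MeTA5. TRO lay near background with signals of 22.3, 33.0, 12.8 and 19.9. It was well above background in TR9_MeTA14 alone, with a log2 change of 0.23. MAGEE2 and MAGEH1 were not well above background on any array.

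**Figure D4:**
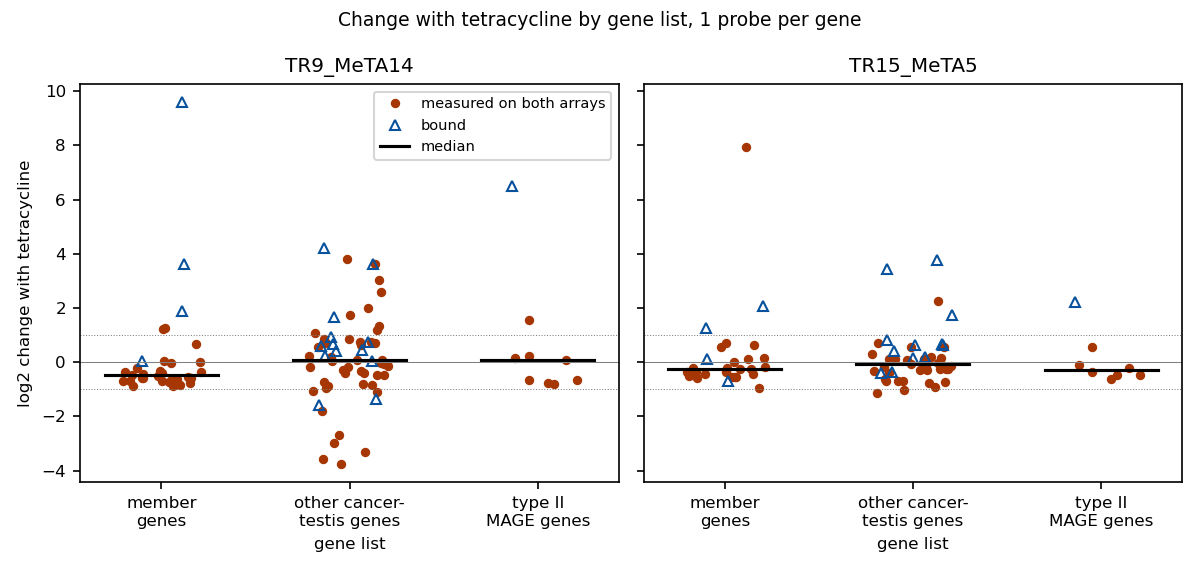
Log2 change with tetracycline per gene, by its probe with the highest mean scaled signal, in TR9_MeTA14 and TR15_MeTA5, for the member genes, the other cancer-testis genes and the type II MAGE genes, with filled points for genes measured on both arrays, triangles for lower bounds on the size of a change and bars for medians. The medians were -0.46, 0.07 and 0.06 in TR9_MeTA14 and -0.26, -0.06 and -0.29 in TR15_MeTA5, beside -0.06 and -0.16 over all genes.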

How the data were processed

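RNA of both cell lines, -Tet and +Tet, was hybridized to 1 Cy3 array per condition, all on 1 slide, and samples were grouped by their labels. The authors deposited spot intensities from Agilent Feature Extraction, version 10.7.3.1 per the file headers and 9.5.1 per the submitters' processing notes. The processed signal is background-subtracted and not normalized between arrays. The deposited series table held the same values on every row.

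Here, spots marked as outliers (255 to 344 per array) were left out, log2 signals of a probe were averaged, and each array's 75th percentile over non-control probes was subtracted. A probe was well above background when most of its spots had that flag, a rule set after totals per array had been seen. The lowest such signals, 13.9 to 19.2, set the bounds. No spot was saturated. The files used here hold no gene names, so RefSeq accessions and a RefSeq table on GRCh38.p14 gave names to 74.5% of probes. The array design was annotated on hg19, and no probe coordinates are given.

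limma 3.58.1 in R 4.3.3 was fitted over all probes with that flag on 2 or more arrays. The fit had a block for the cell line and a trend on intensity, and p-values were adjusted by Benjamini-Hochberg. It was also run on simulated data with independent noise and no difference between the lines in level or response. That run checks the recovery of planted changes and not the p-values here. Whether the lines' responses differ could not be tested, as no residual degree of freedom is left. Members and lists were chosen with earlier results of these data known. Every member gene well above background on at least 1 array is named. Signals on all 4 arrays are given for genes at least 2-fold higher in both lines, the 3 lowest changes in each line, the 5 brightest others, and further genes chosen after their values were seen. Of the other cancer-testis genes, those among the 8 with the highest smaller change are named, and a few genes of the lists are not reported here. Alternatives were quantile, median and spike-in scaling, normexp with an offset of 50 on median pixel intensities, the series table, all spots, filters on dim probes, cut-offs of 3-fold and 1.5-fold, genes in place of probes, the members without CTAGE and SSX2IP, no block and no trend. The remaining steps were run in Python 3.11.15 (numpy 2.4.6, pandas 2.3.3).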

Additional observations from a re-analysis of the deposited data

Results flagged for a closer look

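A total of 5 member probes moved in opposite directions in the lines with tetracycline, with log2 changes at least 1 apart. They were picked for this, by a rule set after the values were seen, and the difference was not tested because 1 array per condition leaves no replicate. The change in TR15_MeTA5 minus that in TR9_MeTA14 was 1.24 for CTAG1A, 1.05 for CTAG2, -1.61 for MAGEC1, -1.95 for MAGEA8 and 1.70 for PAGE2B (A_33_P3420862). In MAGEA8 and PAGE2B the value in TR15_MeTA5 is a bound, since its +Tet and -Tet array, respectively, was not well above background.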

How the results depend on the processing

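No paired analysis was possible because each group has only replicate 1, apart from the pairing by cell line that the block in the limma fit already makes. Without that block limma called the same 1 member probe. No probe past 2-fold changed direction, while small changes did, such as those of MAGEA genes in TR15_MeTA5 with spike-in scaling. In the order TR9_MeTA14 higher (6) and lower (1), TR15_MeTA5 higher (3) and lower (0), and both lines higher (1) and lower (0), the number of member probes past 2-fold was 2, 0, 1, 0, 1 and 0 after normexp with quantile normalization, which kept CT47A11 and the brighter MAGEC2 probe and lost the calls of MAGEA8, MAGEB2, MAGEB3, PAGE2B, SSX8P and the dimmer MAGEC2 probe. It was 1, 0, 0, 0, 0 and 0 for the probes measurable on all 4 arrays, 7, 3, 6, 7, 2 and 2 with plain ratios and no filter, and 7, 16, 5, 3, 2 and 1 at 1.5-fold. Quantile normalization gave 3 lower in TR9_MeTA14 (both CTAGE10P probes added) and 1 lower in TR15_MeTA5 (MAGEC1), and lost MAGEB2. Spike-in scaling gave 5 higher in TR15_MeTA5 and 2 in both lines, MAGEB2 being added there. The 1 lower probe in TR9_MeTA14 became 0 at 3-fold and with genes in place of probes. With genes by the highest mean log2 signal, an alternative added after seeing the data, 0 were higher in both lines. Without tetracycline, 6 higher and 3 lower became 3 and 15 with spike-in scaling, 3 and 1 with normexp, 3 and 3 on all 4 arrays and 10 and 5 with plain ratios. limma called 0 member probes on all 4 arrays in place of 1, and 1 in every other setting. With the looser flag of a signal significantly above background, 47, 51, 48 and 46 member probes were detected. The cause of these shifts was not tested, apart from filters, which change the probes compared. Spike-in scaling shifts every change in a line by the same amount. That amount exceeded the SD between spots in both lines, so all 74 single changes moved by construction. Normexp moved 44 of the 74 by more than this SD, and quantile normalization moved 38 of 72.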

Other observations

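Several listed cancer-testis genes that act in mitosis were lower with tetracycline in TR9_MeTA14, a group put together after its values were seen. The log2 changes in TR9_MeTA14 and TR15_MeTA5 were -3.74 and -1.04 for NUF2, a kinetochore subunit, -3.56 and -0.69 for the kinase PBK, and -3.30 and -0.78 for CEP55, which acts in cytokinesis. KIF2C, a microtubule depolymerase, had -2.97 and -0.69, the spindle checkpoint kinase TTK -2.69 and -0.70, and OIP5 -1.79 and -0.63. All 6 were well above background on all 4 arrays. In each the change was larger in TR9_MeTA14, a difference that was not tested. Over the whole list, 10 of 59 genes compared in TR9_MeTA14 were at least 2-fold lower and 12 higher. Among all genes it was 2276 and 2550 of 15077. In TR15_MeTA5, 2 of 46 listed genes were lower, beside 323 of 14343 of all genes, so fewer genes fell in that line in general.

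PASD1, a further gene of that list, had signals of 864.5, 1130, 3.4 and 4.5 and was not well above background in TR15_MeTA5 on either array, while its log2 change with tetracycline in TR9_MeTA14 was 0.05. Among the male germ cell markers, ACR, the acrosomal protease acrosin, had signals of 72.1, 559.8, 55.4 and 179.2, or log2 changes of 2.63 and 1.13. It was the germ cell marker at least 2-fold higher in both lines, 1 of 5 with a change in each (20%, beside 8.30% of all genes). PRM1 and PRM2, the protamines that pack sperm DNA, were well above background on all 4 arrays with log2 changes between -0.91 and -0.16.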
